A study of Rattus norvegicus with 32 samples.

Results

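The mammary gland dissected from a rat can carry skeletal muscle with it, and the 31 arrays analysed here differed widely in how much muscle RNA they held. Each array was scored by the mean centred log2 intensity of 5 genes of fast skeletal muscle, Acta1, Tnnt3, Tnni2, Actn3 and Mybpc2, and the 8 arrays of highest score and the 8 of lowest were chosen by that score from the 31, which left 15 in neither group. Of the 32 arrays deposited, the 1 of the 40 h rat was left out, since the study discarded it. All rats were adult virgin Sprague Dawley females without treatment, and their 4-day estrous cycle was sampled at 1 time per rat, so an array is 1 rat and no time point was repeated. The labels name a single pair of glands with the lymph nodes removed, whereas the study's methods name several glands of the left side, and the sources do not settle the difference. The glands came from whole tissue, so a larger number of muscle fibres and more RNA per fibre cannot be told apart.

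Skeletal muscle fibres are packed with sarcomeres, in which myosin thick filaments pull on thin filaments of actin, tropomyosin and troponin when calcium is released from the sarcoplasmic reticulum. Fast fibres and slow fibres use different isoforms of most of these proteins, and fast fibres rely more on glycogen and on phosphocreatine, whereas slow fibres rely more on oxidative metabolism. The mammary gland of a virgin rat is an epithelial duct system embedded in fat, and the rodent trunk has a thin sheet of skeletal muscle beneath the skin.

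The high-muscle arrays were those of 7, 13 and 13.2 h on day 1, 32.8 and 37.1 h on day 2, 57 h on day 3 and 79.3 and 86.3 h on day 4. The low-muscle arrays were those of 10 and 17.6 h on day 1, 31.6 and 41.6 h on day 2, 62.5 and 67.1 h on day 3 and 82.5 and 83.9 h on day 4. The score, in log2 units, ran from 1.99 to 2.88 in the high-muscle arrays and from -4.46 to -1.92 in the low-muscle arrays. The last array inside the high group, that of 86.3 h, scored 1.99 and the first outside it, that of 38.3 h, scored 1.92, so the upper border did not mark a gap. The lower border lay between the 62.5 h array at -1.92 and the 43 h array at -1.57. The median intensity of an array was 51.1 to 53.6 in the high group and 49.9 to 53.4 in the low group. Genes of fat and of epithelium were present throughout, and Fabp4, the fatty acid carrier of adipocytes, ran from 15326 to 23367 and Epcam, an adhesion protein of epithelium, from 3691 to 7604 over the 31 arrays.

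Acta1, the actin of skeletal muscle thin filaments, had intensities of 9708 to 15148 with a median of 11562 in the high-muscle arrays, and of 40.8 to 816 with a median of 258 in the low-muscle arrays. Its mean log2 intensity was 5.48 ± 0.49 (SE, n = 8 and 8) higher, a 44.6-fold difference. Tnnt3, the fast troponin that binds tropomyosin, ran from 2244 to 4786 (median 3031) against 29.9 to 144 (median 78.2). Tnni2, the inhibitory troponin of fast fibres, ran from 2807 to 5509 (median 3475) against 48 to 192 (median 59.4). These genes differed by 5.63 ± 0.34 and 5.60 ± 0.31 on the log2 scale. Actn3, the alpha-actinin of fast Z discs, ran from 2031 to 4014 (median 2610) against 11.1 to 118 (median 34.6), a difference of 6.36 ± 0.43. Mybpc2, the fast myosin-binding protein C, ran from 437 to 1041 (median 482) against 14.2 to 53.5 (median 27.1), a difference of 4.42 ± 0.28. The score was made from these values, which are therefore given as a description. The 15 other arrays filled the range between the groups, with Acta1 from 1091 to 10423.

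**Figure D1:**
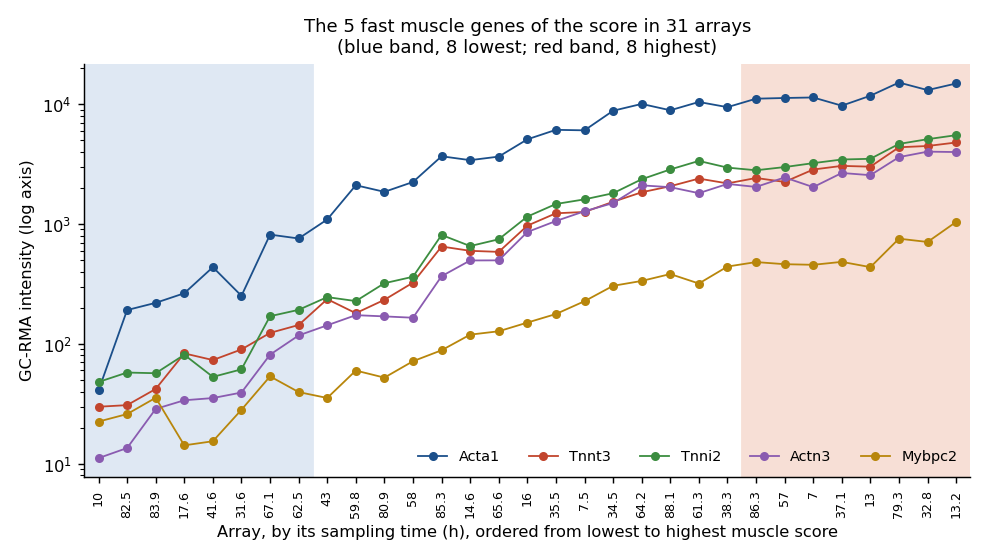
GC-RMA intensity (log axis) of the 5 score genes in 31 arrays, 1 point per array and gene, with arrays named by sampling time in hours and ordered by score. The 5 genes climb together from the 8 arrays in the blue band (Acta1 40.8 to 816) to the 8 in the red band (Acta1 9708 to 15148).

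No difference of the muscle score between cycle days was detected beyond the spread between rats. Its mean ± SD was 0.15 ± 2.66 on day 1 (n = 8), 0.15 ± 2.43 on day 2 (n = 8), -0.05 ± 1.72 on day 3 (n = 8) and -0.29 ± 2.64 on day 4 (n = 7), and the between-day F was 0.0559 (permutation test with 100000 resamples, p = 0.982, adjusted over 2 tests 0.982). The 14 rats sampled earlier in the day had a mean of -0.37 ± 2.56 and the 17 sampled later 0.31 ± 2.02, a difference of 0.68 (two-sided permutation test, p = 0.413, adjusted 0.826). Within a day, rats killed a few hours apart lay at opposite ends of the scale, as with 10 h (-4.46) and 13.2 h (2.88) on day 1. Although the whole set showed no difference by hour beyond the spread between rats, the 8 high-muscle rats were sampled at clock hours from 7.0 to 14.3 (median 11) and the 8 low-muscle rats from 7.6 to 19.1 (median 13.2). For lists whose medians moved with day and hour, medians with both in the fit are given below. Differences of single genes are without these terms unless stated.

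**Figure D2:**
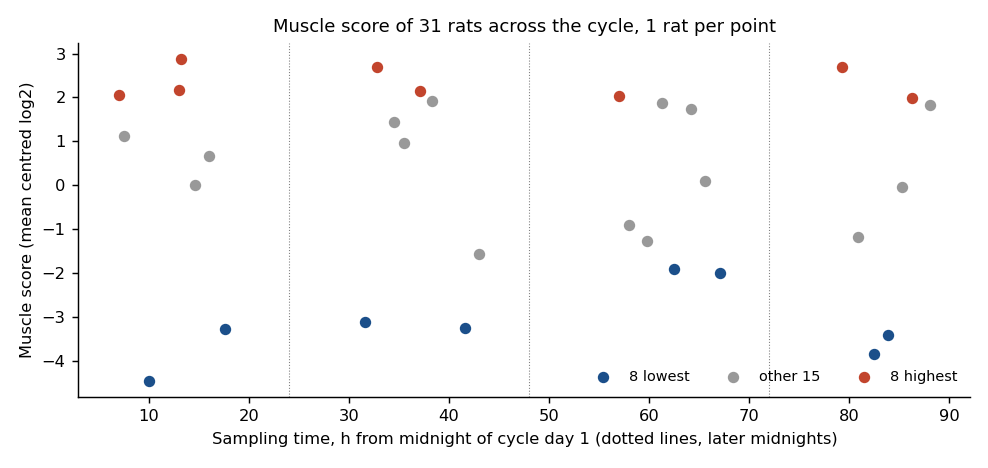
Muscle score (mean centred log2) of 31 rats against sampling time in hours from midnight of day 1, 1 point per rat, with dotted lines at later midnights. High-muscle arrays (red) and low-muscle arrays (blue) occur on each of the 4 days, 3, 2, 1 and 2 high against 2, 2, 2 and 2 low.

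Promoter sequences are shown for 4 genes. Acta1 and Myh4 are fast-muscle genes with a match of letters to the CArG box, the motif known as the serum response element. Tnni2 is a fast-muscle score gene without such a match. Myh7, the slow myosin heavy chain, overlapped between the groups. Each is the 250 bases before the gene's start in RefSeq annotation of build GRCr8, 5′ to 3′ on the gene's strand, with capitals marking E-boxes (CANNTG, the site of myogenic helix-loop-helix factors), CArG boxes and MEF2 boxes.
Acta1, chr19:68784195-68784444, minus strand: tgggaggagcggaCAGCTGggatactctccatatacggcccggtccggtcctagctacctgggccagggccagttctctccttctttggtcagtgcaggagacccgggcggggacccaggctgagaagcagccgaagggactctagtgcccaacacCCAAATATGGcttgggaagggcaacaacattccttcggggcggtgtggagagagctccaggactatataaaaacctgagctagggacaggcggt
Myh4, chr10:52421898-52422147, plus strand: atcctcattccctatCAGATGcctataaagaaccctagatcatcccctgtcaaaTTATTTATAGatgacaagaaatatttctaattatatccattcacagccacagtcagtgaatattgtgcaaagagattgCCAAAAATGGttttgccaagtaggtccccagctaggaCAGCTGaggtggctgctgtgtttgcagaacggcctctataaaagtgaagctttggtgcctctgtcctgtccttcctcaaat
Tnni2, chr1:207024240-207024489, plus strand: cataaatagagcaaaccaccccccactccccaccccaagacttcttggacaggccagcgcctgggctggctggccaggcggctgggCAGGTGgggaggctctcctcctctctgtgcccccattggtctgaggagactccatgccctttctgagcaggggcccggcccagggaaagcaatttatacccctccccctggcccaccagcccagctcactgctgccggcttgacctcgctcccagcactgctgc
Myh7, chr15:32438195-32438444, minus strand: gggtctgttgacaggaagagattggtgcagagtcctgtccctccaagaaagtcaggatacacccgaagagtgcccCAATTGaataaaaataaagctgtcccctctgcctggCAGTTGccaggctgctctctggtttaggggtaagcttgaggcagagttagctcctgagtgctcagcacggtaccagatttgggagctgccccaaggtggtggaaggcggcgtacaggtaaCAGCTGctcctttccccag

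Of the 20 genes made up of the 5 score genes and the 15 genes outside the score with the largest differences among those of 10 or more on all 31 arrays, 16 had a promoter entry. A CArG box, searched on both strands, lay in 2 of the 16, 84 bases before the start in Acta1 and 108 bases before it in Myh4, and in 1.5% of all 27457 promoters of the same length. A MEF2 box lay in 1 of the 16, that of Myh4, and in 3.07% of all promoters. An E-box lay in 12 of the 16 and in 65.2% of all, and TATAAA in 6 of the 16 and in 13.1% of all. In the 4 sequences printed, the MEF2 box of Myh4 contains a TATAAA match on the opposite strand, and no other matches of different motifs overlapped. These are matches of letters only.

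Across the array, 83 of 21068 probe sets with an intensity of 10 or more on all 31 arrays were higher in every high-muscle array than in any low-muscle array, which is 0.394% of those compared. They included the 5 of the score, and 68 of them carried 1 gene symbol, for 60 genes. Lower without overlap were 3 probe sets (0.0142%), none of them with a symbol, with differences from -0.38 to -0.19 on the log2 scale. This count was 5 without the array of 86.3, 57 or 37.1 h, 6 without that of 31.6 h and 7 without that of 41.6 h, and it was 352 with 5 against 5 arrays. By size, 69 probe sets (0.328%) were at least 2-fold higher and 11 (0.0522%) at least 2-fold lower. The median difference over all probe sets was 0.01, and 98.4% lay within 0.5 of 0 on the log2 scale. A further 9974 probe sets fell below 10 on some array, and without that filter 173 of 31042 (0.557%) were higher without overlap. The filter thus removed 90 such probe sets, of which 84 were below 10 only outside the high-muscle arrays, so that the most muscle-restricted transcripts are among those it left out. They are described here with the others, and the arrays were chosen on the same contrast, so no test was made of these counts.

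Genes of the fast sarcomere stood highest among those that passed. Myh4, the myosin heavy chain of the fastest fibres, had intensities of 2976 to 7673 with a median of 5248 in the high-muscle arrays and of 10.8 to 283 with a median of 39.3 in the low-muscle arrays, and its difference was 6.74 ± 0.66 (SE, n = 8 and 8) on the log2 scale, or 107-fold. Myl1, a fast myosin light chain, ran from 6311 to 9891 (median 7919) against 26.7 to 352 (median 96.8), a difference of 6.31 ± 0.50. The 2 groups did not overlap for either gene. Tcap, the titin cap of the Z disc, ran from 239 to 974 (median 456) against 11.8 to 49.6 (median 21.9), a difference of 4.40 ± 0.35. Mybpc1, the slow-type myosin-binding protein C that is also made in fast fibres, differed by 3.5 ± 0.31, Tmod4, which caps thin filaments, by 3.05 ± 0.20, Nrap, a protein of forming myofibrils, by 2.90 ± 0.18 and Myom1, which links thick filaments in the M band, by 2.14 ± 0.20. Of the 25 genes of the fast fibre sarcomere list 22 were measured, and 12 passed the filter (median 2.52). Of these 12, 9 did not overlap between the groups, and 8 of the 10 removed ones did not overlap either. Over all probe sets, 0.394% of those that passed and 90 of the 9974 removed were higher without overlap.

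The removed members had differences from -0.21 (Myh8) to 6.80 (Tnnc2). Tnnc2, the calcium-binding troponin of fast fibres, ran from 3519 to 7471 (median 4936) in the high-muscle arrays and from 9.60 to 229 (median 52.9) in the low-muscle arrays, a difference of 6.80 ± 0.62. Ttn, the giant spring protein titin, differed by 6.05 ± 0.45, Myoz1, a Z-disc partner of calcineurin, by 5.34 ± 0.27, Myh2, the myosin of fast oxidative fibres, by 4.99 ± 0.49, and Neb, the ruler of the thin filament, by 4.93 ± 0.38. Values below 10 lie near the lowest intensities of these arrays, so these differences depend on that floor, and with values below 10 set to 10 the fold of Myh2 was 24.8 in place of 31.8. The developmental myosin Myh3 was below 10 in both groups, and Myh8, another, ran from 8.18 to 12.2 in the high-muscle arrays and from 8.04 to 19.97 in the low-muscle arrays, with up to 52.4 in the arrays of neither group.

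For several genes, the probe sets of 1 gene did not move together. Of the probe sets that passed for Tpm1, the alpha-tropomyosin whose exons are spliced differently in muscle and other cells, 2 differed by 5.66 and 5.17 on the log2 scale, 1 by 0.88, and the other 3 by -0.03, -0.13 and -0.16. For Tpm2, the beta-tropomyosin, 1 probe set differed by 5.57 (means 1198 against 30.1) and the other by -0.07 (means 3141 against 3293). Among those that passed, Pdlim5, a Z-disc and focal adhesion protein, had 1 probe set at 2.48 and another at -0.07, Pdlim7, its relative, had 2.09 and 0.08, and Asph, whose gene encodes both a hydroxylase and the junction protein junctin, had 2.19, 0.00 and -0.09. Pdlim5 and Pdlim7 were named after their values were seen. All 5 probe sets assigned to Myh1, a fast myosin heavy chain, lay between -0.44 and -0.08 with mean intensities of 162 to 2314, so none of them was higher in the high-muscle arrays. The brightest of them had a mean of 2020 in the high-muscle arrays and 2314 in the low-muscle arrays. What the Myh1 probe sets detect, and whether they are assigned to the right gene, was not tested.

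Several calcium handling and excitation genes did not overlap between the groups. Atp2a1, the calcium pump of the fast sarcoplasmic reticulum, ran from 1742 to 3413 (median 1970) in the high-muscle arrays against 6.06 to 87.9 (median 24.7) in the low-muscle arrays, a difference of 6.44 ± 0.50. Pvalb, the calcium buffer parvalbumin, ran from 1208 to 2616 (median 1628) against 9.22 to 66.0 (median 23.3), a difference of 6.08 ± 0.38. Both were below 10 in 1 low-muscle array and so were outside the filtered set. Casq1, the calcium store protein of fast fibres, differed by 5.57 ± 0.26, Trdn, triadin, by 5.0 ± 0.17, Ryr1, the calcium release channel, by 3.56 ± 0.20, Srl, sarcalumenin, by 3.0 ± 0.20 and Cacna1s, the voltage sensor of the T tubule, by 1.64 ± 0.18. The low-muscle values of Trdn were all below 10, and its fold of 32 became 14.2 with such values set to 10. All 19 listed genes were measured, and 8 passed the filter (median 0.94). Of these, 3 did not overlap, with a further 8 among the 11 removed. The shares over all probe sets were 0.394% of those that passed and 90 of the 9974 removed. Cacnb1, a calcium channel subunit, differed by 0.07 ± 0.06 at low intensity (means 20.8 against 19.8). Scn4a and Clcn1, the sodium and chloride channels of the muscle membrane, were below 10 on all 16 arrays.

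Among energy genes, several muscle isoforms did not overlap between the groups. Ckm, the muscle creatine kinase, ran from 3937 to 7491 (median 4844) in the high-muscle arrays and from 4.64 to 172 (median 42.1) in the low-muscle arrays, a difference of 7.13 ± 0.67, or 123-fold with values below 10 set to 10. Pygm, the muscle glycogen phosphorylase, ran from 598 to 1342 (median 798) against 14.2 to 42.4 (median 20.9), a difference of 5.14 ± 0.27. Eno3, the muscle enolase, ran from 1489 to 3537 (median 1982) against 42.8 to 112 (median 69.7), a difference of 4.96 ± 0.24. The high-muscle arrays were above all low-muscle arrays for these 3 genes. Pgam2, the muscle phosphoglycerate mutase, differed by 5.68 ± 0.31, and the muscle cytochrome oxidase subunits Cox6a2 and Cox8b by 5.47 ± 0.26 and 5.05 ± 0.34. Cox7a1, another of the kind, differed by 0.04 ± 0.12 with overlap. In the 40 h array, left out of the comparison, Cox7a1 was at only 14.7, with Cox6a2 at 619 and Cox8b at 507. Ampd1, the muscle AMP deaminase, differed by 4.98 ± 0.28, and Mb, myoglobin, by 4.70 ± 0.44. Adss1, which serves the same purine nucleotide cycle as Ampd1, differed by 2.64 ± 0.21.

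Glycolytic enzymes that other tissue makes as well had differences below 1. Aldoa, the aldolase of muscle and many other cells, ran from 6227 to 8559 (median 7533) against 3361 to 4874 (median 4082), a difference of 0.89 ± 0.08 with no overlap. Tpi1 differed by 0.43 ± 0.08, Ldha, lactate dehydrogenase A, by 0.25 ± 0.08, and Pgk1 by 0.21 ± 0.09, all with overlap. Pfkm, the muscle phosphofructokinase, differed by 1.57 ± 0.13 without overlap, and Fbp2, the muscle fructose bisphosphatase, by 0.64 ± 0.16 with overlap. Of 25 energy genes listed, 22 were measured and 14 passed the filter (median 0.53). Of these 14, 6 did not overlap, and all 8 removed ones did not overlap. The shares over all probe sets were 0.394% of those that passed and 90 of the 9974 removed. Fabp3, the fatty acid carrier of heart and slow muscle, overlapped widely, and its difference was -0.37 ± 1.10. With cycle day and clock hour in the fit, that difference was 0.48. Its highest values were 4896 at 43 h and 4113 at 41.6 h, the latter a low-muscle array.

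Regulators of muscle identity were mostly at low intensity, but Mef2c was not. Its probe sets had means of 911 against 689 and of 714 against 473. They differed by 0.41 ± 0.11 and 0.60 ± 0.10, with overlap. Klhl41, a stabilizer of the sarcomere, ran from 98.0 to 421 (median 206) against 5.89 to 13.3 (median 8.20), a difference of 4.52 ± 0.26. Des, the muscle intermediate filament desmin, ran from 331 to 546 (median 372) against 96.1 to 168 (median 117), a difference of 1.73 ± 0.14. Myf6, the myogenic factor of mature fibres, ran from 14.7 to 53.2 against 4.25 to 7.10, and Trim63, a ubiquitin ligase of the sarcomere, from 21.5 to 46.5 against 4.72 to 13.3. Cav3, the muscle caveolin, differed by 1.42 ± 0.19. Myod1, the founding factor of the myogenic programme, was below 10 in 7 of the 8 high-muscle arrays and in all low-muscle arrays, and Myog differed by 0.41 ± 0.15 with overlap. Musk and Chrnd, a kinase and a receptor subunit of the neuromuscular junction, were below 10 on all 16 arrays. Of 26 genes listed, 21 were measured and 10 passed the filter (median 0.41). Of these 10, 2 were without overlap, and 4 of the 11 removed ones did not overlap. The shares over all probe sets were 0.394% of those that passed and 90 of the 9974 removed.

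Genes outside these lists also stood apart. Mlf1, a myeloid leukemia factor that skeletal muscle also expresses, ran from 597 to 1590 (median 926) against 17.5 to 127 (median 29.0), a difference of 4.82 ± 0.36, and its low-muscle maximum was the 62.5 h array. Ddit4l, a stress-induced inhibitor of mTOR signalling, ran from 121 to 598 (median 167) against 13.3 to 34.1 (median 23.7), a difference of 3.11 ± 0.33. Rtn2, a reticulon of the endoplasmic reticulum, ran from 69.2 to 138 (median 104) against 12.9 to 27.3 (median 17.1), a difference of 2.56 ± 0.18. Together with Myh4, Myl1, Tpm1, Tpm2, Pygm, Eno3, Tcap, Mybpc1, Tmod4, Srl, Nrap and Adss1, these 3 were the 15 named genes of largest difference outside the score among those that passed the filter without overlap.

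Most genes of the slow fibre and cardiac list overlapped between the groups, and several of them differed among the high-muscle arrays. Myh7, the slow myosin heavy chain, had an intensity of 279 in the 13.2 h array, 120 in the 79.3 h array, 86.3 in the 7 h array and 61.1 in the 57 h array. In the other 4 high-muscle arrays it was at 14.3 (13 h), 10.1 (86.3 h), 7.11 (37.1 h) and 6.93 (32.8 h), whereas the low-muscle arrays lay between 6.67 and 10.7. The 32.8 h array had the second highest score of all 31 and a Myh7 intensity inside the low-muscle range. The other Myh7 probe set also overlapped, but was higher in 63 of the 64 pairs of a high-muscle with a low-muscle array. Its means were 27.2 against 10.0, a difference of 1.13 ± 0.35. Tnnc1, the slow and cardiac calcium-binding troponin, was at 352, 196, 115 and 75.8 in the arrays of 13.2, 79.3, 7 and 57 h and at 34.2, 29.5, 15.1 and 16.2 in those of 13, 86.3, 37.1 and 32.8 h, against 9.92 to 20.3 in the low-muscle arrays. Myl2 and Myl3, the slow light chains, and Tnnt1, the slow tropomyosin-binding troponin, reached their highest values of 243, 205 and 172 in the same 13.2 h array. Some arrays in neither group also held slow-fibre RNA, with Myh7 at 144 in the 38.3 h array, 81.5 at 34.5 h and 80.4 at 64.2 h, but at 7.42 in the 61.3 h array, whose score of 1.87 was close to that of 38.3 h.

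Sln, sarcolipin, a small inhibitor of the calcium pump, was uneven in another way. Its highest intensities were 264 in the 32.8 h array and 141 in the 61.3 h array, both with Myh7 below 10, while it was at 5.92 in the 13.2 h array that had the most Myh7. Csrp3, a muscle LIM protein, was likewise highest in those 2 arrays, at 61.7 and 87.9, but all high-muscle arrays (16.8 to 61.7) lay above the low-muscle arrays (4.88 to 7.2). Of 17 slow and cardiac genes listed, 16 were measured and 6 passed the filter. None of these 6 was without overlap, and their median difference was 0.01. Myh7, Tnnc1, Myl2, Myl3 and Tnnt1 were removed by the filter, so this median leaves them out. Over all 16 measured the median was 0.73. Myh7 differed by 2.06 ± 0.74, Tnnc1 by 1.93 ± 0.61 and Myl2 by 1.92 ± 0.62, all with overlap. Of the removed members, the cardiac Tnnt2 and Tnni3 were below 0, at -0.27 and -0.02. Among the 10 removed, 2 did not overlap, Csrp3 and Myoz2, the slow Z-disc calsarcin, against 90 of all 9974 removed probe sets. Of the 6 that passed, Tnni1 was the highest at 1.07 ± 0.45, with means of 38.8 against 13.8 and with overlap. Casq2 followed at 0.31 ± 0.18. Tpm3 and Atp2a2, which non-muscle cells also make, differed by 0.04 ± 0.09 and -0.05 ± 0.05. Myh6 and Pln, genes best known from heart, differed by -0.04 ± 0.14 and -0.02 ± 0.19, and cardiac Tnni3 was below 10 on all 16 arrays.

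**Figure D3:**
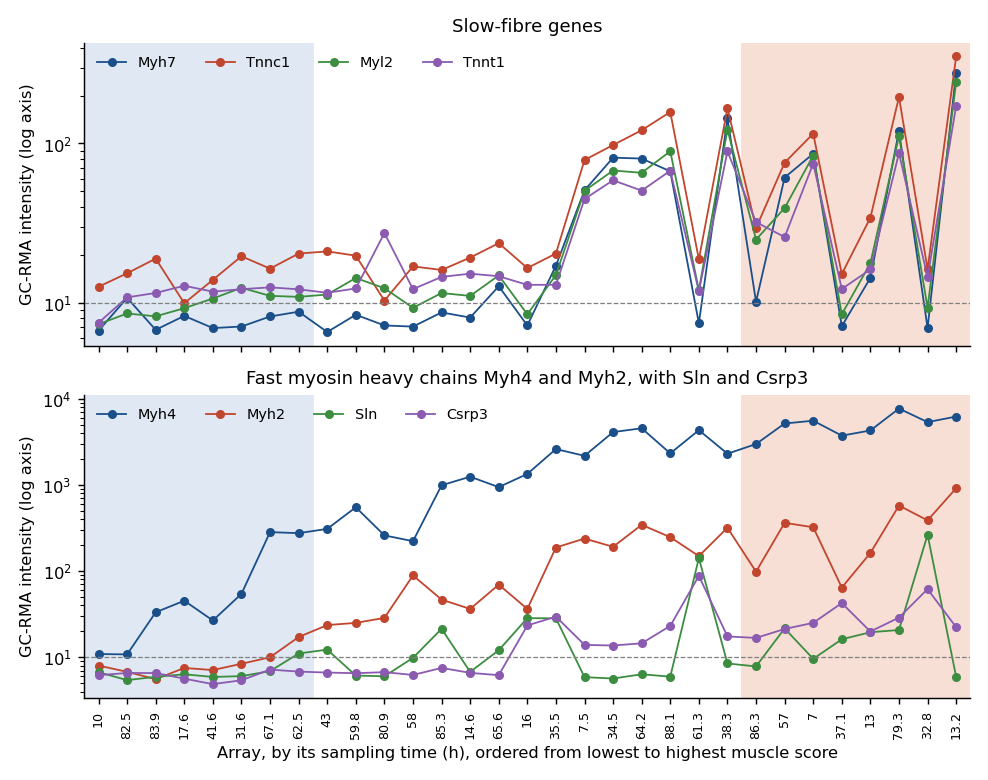
GC-RMA intensity (log axis) in 31 arrays ordered by muscle score, with sampling times in hours, the 8 low-muscle arrays in the blue band, the 8 high-muscle arrays in the red band and a dashed line at 10. The upper panel has 4 slow-fibre genes, which drop to the low-muscle level in several arrays of high score (Myh7 at 6.93 in the 32.8 h array), and the lower panel has Myh4 and Myh2, which stay high there, with Sln and Csrp3.

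No listed gene of the gland's own cell types separated the groups. Over all probe sets compared, 0.394% were higher without overlap, a share at which lists of this size hold few or none. None of the 16 adipocyte genes was without overlap, and their median difference was 0.18, from Scd, a fatty acid desaturase, at 0.38 ± 0.75, to Fasn, the fatty acid synthase, at -0.22 ± 0.23. The luminal epithelial list had a median of -0.17 over 15 genes that passed, from Krt7, a duct keratin, at 0.20 ± 0.23, to Elf5, a factor of milk-producing lineages, at -0.55 ± 0.28. The medians were 0.17 for the 10 fibroblast and collagen genes, 0.18 for the 9 endothelial genes, 0.19 for the 11 macrophage genes, 0.13 for the 5 Schwann cell and nerve genes and 0.15 for the 2 erythroid genes that passed, none without overlap. All 9 endothelial genes and all 11 macrophage genes that passed had means above those of the low-muscle arrays, by 0.09 to 0.38 and 0.02 to 0.37. With cycle day and clock hour in the fit, the medians of these 2 lists were 0.16 and 0.11. In the other 15 arrays, described below, their median slopes on the score were 0.01 and -0.03, and none of these genes was called. The 12 basal and smooth muscle genes had a median of 0.05, and Acta2, the smooth muscle actin of myoepithelium, ran from 1333 to 2569 against 1083 to 2325, with wide overlap. The 6 ribosomal protein genes had a median of -0.01 with differences of -0.04 to 0.04, and the 13 general subunits of oxidative phosphorylation a median of 0.10.

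Genes that fat and muscle share lay near 0 as well. Of 11 measured, 8 passed, with a median of 0.19 and no gene without overlap, against 0.394% of all probe sets higher without overlap. Cpt1b, which carries fatty acids into the mitochondria of muscle and brown fat, was the highest at 0.85 ± 0.17, with intensities of 59.3 to 126 (median 94.3) against 32.4 to 63.8 (median 50.9), and 62 of the 64 pairs of a high-muscle with a low-muscle array had the higher value in the high-muscle array. Slc2a4, the insulin-regulated glucose transporter, differed by 0.43 ± 0.27, Pdk4, an inhibitor of glucose oxidation, by 0.37 ± 0.54, and Lpl, lipoprotein lipase, by 0.03 ± 0.15. Ucp1, the uncoupling protein of thermogenic fat, was below 10 on all 16 arrays, and the 2 thermogenic genes that passed were Cpt1b itself and Cidea at 0.08 ± 0.18.

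Lists that vary with the cycle or the hour had medians off 0 in some cases, and these shrank once cycle day and clock hour were in the fit. No gene of these lists was without overlap, against 0.394% of all probe sets higher without overlap. The medians were -0.32 for 14 clock genes, -0.31 for 7 milk protein genes, -0.31 for 15 mitosis genes and 0.28 for 6 hormone-sensing genes. In the fit with cycle day as a factor and clock hour they were 0.09, -0.07, -0.01 and -0.14, so the direction turned for the clock and hormone-sensing lists. The skin, lymphocyte and erythroid medians, which were close to 0 or rested on few genes, also changed sign, to -0.04, 0.095 and -0.003. The fast fibre sarcomere median was 2.52 without and 2.54 with these terms. The clock members ran from Per2, a repressor of the clock, at -0.79 ± 0.57, to Npas2, a clock activator, at 0.96 ± 0.71. With day and hour in the fit, Per2 was at -0.08 and Npas2 at 0.0006. Milk proteins ran from Csn2, beta-casein, at -1.28 ± 1.28, to Lpo, lactoperoxidase, at 0.31 ± 0.34. In that fit Csn2 was at -0.11 and Lpo at 0.39. Hormone-sensing genes ran from Wnt4, a signal to neighbouring cells, at -0.28 ± 0.24, to Areg, the growth factor amphiregulin, at 0.49 ± 0.67. With day and hour, Wnt4 was at -0.01 and Areg at 0.19. Mitosis genes ran from Cdc20 at -0.39 ± 0.50 to Cdk1, the mitotic kinase, at -0.15 ± 0.66. With day and hour, Cdc20 was at -0.25 and Cdk1 at 0.26.

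**Figure D4:**
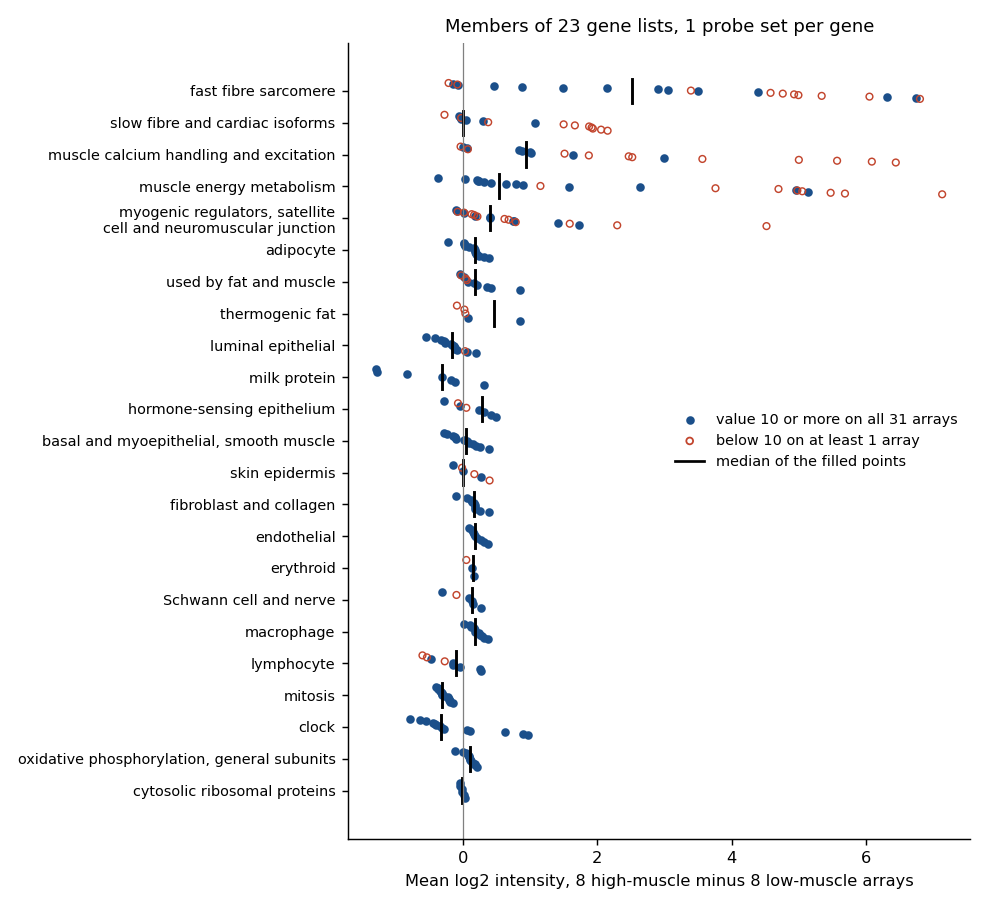
Difference in mean log2 intensity between the 8 high-muscle and 8 low-muscle arrays for members of 23 gene lists, 1 probe set per gene, filled where all 31 arrays had values of 10 or more and open otherwise, with a bar at the median of the filled points. Members with differences over 2 occur in the 5 muscle lists, while the lists of gland cell types lie between -1.28 and 0.96.

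Some arrays also stood apart for genes of other lists, and what set them apart was not tested. Krt10, a keratin of the differentiated epidermis, was at 1033 in the 7 h array against 107 to 145 in the other 7 high-muscle arrays, while the skin list had a median difference of 0.00 over the 3 genes that passed. In the lymphocyte list, with a median of -0.09 over 6 genes, the 57 h array stood above the other high-muscle arrays. Its list level (mean centred log2) was 1.825. Among arrays in neither group, that of 80.9 h was at 2.47 and that of 61.3 h at 2.05. Of the 11 probe sets at least 2-fold lower in the high-muscle arrays, 8 had a symbol, and all of them overlapped between the groups. They held Jchain and Ighl2, parts of antibodies, at -1.54 and -1.39, Pigr, which carries antibodies across epithelium, at -1.10, and the milk genes Csn2 and Glycam1 at -1.28 and -1.27. The others were Pxmp4, Fubp3 and Elavl1, and these genes were named after their values were seen. Without the 7 h array 7 probe sets were 2-fold lower, and in the fit with day and hour there were also 7. In that fit Csn2 was at -0.11 and Glycam1 at -0.02.

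The 15 arrays in neither group allowed a test that the comparison of the extremes did not use. In limma, log2 intensity was fitted on the muscle score across these arrays, and 39 of 21063 probe sets outside the score genes rose with the score (0.185%) while 3 fell (0.0142%), at an adjusted p of 0.05. The count of falling probe sets was 1 to 4 when 1 array was left out, being 1 without any of the arrays of 7.5, 14.6, 16, 35.5, 43, 58, 80.9, 85.3 or 88.1 h, and it was 1 with day and hour in the fit. Of the 78 probe sets outside the score that did not overlap between the high-muscle and low-muscle arrays, 36 were among the 39 (46.2% of the 78 and 92.3% of the 39), and 77 of the 78 had a slope above 0. The 15 genes of largest difference that passed the filter were all called. The score in these arrays was still made from the 5 marker genes, so the slopes say which transcripts vary with those 5.

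Slopes differed between the genes called. A slope of 1 means that log2 intensity moved as much as the score. It was 0.99 ± 0.03 (SE, n = 15) for Myl1 (adjusted p in limma 1.68e-11), 1.10 ± 0.11 for Myh4 (1.85e-05), 1.0 ± 0.06 for Tcap (2.98e-08), 1.03 ± 0.04 for Pygm (1.58e-10) and 0.98 ± 0.04 for Eno3 (2.89e-11). Mlf1 had 0.94 ± 0.09 (2.89e-05). Smaller slopes that were still called belonged to Mybpc1 with 0.79 ± 0.09, Srl with 0.72 ± 0.05, Adss1 with 0.51 ± 0.05, Cacna1s with 0.38 ± 0.05, Des with 0.36 ± 0.05 and Pfkm with 0.31 ± 0.04. Aldoa had a slope of 0.10 ± 0.07 and was not called (adjusted p in limma 0.9997), although its extremes did not overlap, and Cav3, with 0.36 ± 0.07, missed the threshold at an adjusted p of 0.0557.

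By list, 7 of the 12 fast fibre sarcomere genes that passed rose with the score, 3 of the 8 calcium handling genes, 4 of the 14 energy genes and 1 of the 10 regulators. In the fit without the filter, where 116 of 31035 probe sets rose (0.374%), the removed members called higher were 8 of 10, 7 of 11, 7 of 8 and 3 of 11, with Ckm at 1.12 ± 0.03, Tnnc2 at 1.07 ± 0.03 and Pvalb at 1.21 ± 0.05. No member of the slow fibre and cardiac list was called, although Myh7 had a slope of 0.97 (adjusted p in limma 0.153) and the 10 removed members had a median slope of 0.66. No member of any of the 18 lists of other cell types and processes was called in either direction. Over all probe sets that passed, 0.185% were called higher and 0.0142% lower, shares at which lists of this size hold few or none. The median slope of the 15 mitosis genes was -0.35, with all 15 below 0 and none called, against a median slope of -0.005 over all probe sets. Cycle day and clock hour were not in this fit, and their part in these slopes was not tested. Between the extreme arrays, which this fit did not use, the median difference of these genes was -0.31, and -0.01 with day and hour.

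The 3 probe sets called higher outside the non-overlapping set were those of Jph1, junctophilin of the muscle calcium release junction, at 0.36 ± 0.06, Klhl33, a kelch protein, at 0.31 ± 0.06, and 1 without a symbol. Jph1 had the higher value in 63 of the 64 pairs of extreme arrays. The 3 called lower were Itga1, the collagen-binding integrin alpha 1, at -0.42 ± 0.08, Kcnip4, a potassium channel partner, at -0.25 ± 0.04, and Ints7, of the integrator complex, at -0.20 ± 0.04. Their differences between the extreme arrays were 0.05, -0.11 and 0.28, so that none of the 3 was lower there by more than 0.11 and 2 were higher. These 6 were named because the counts are small.

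**Figure D5:**
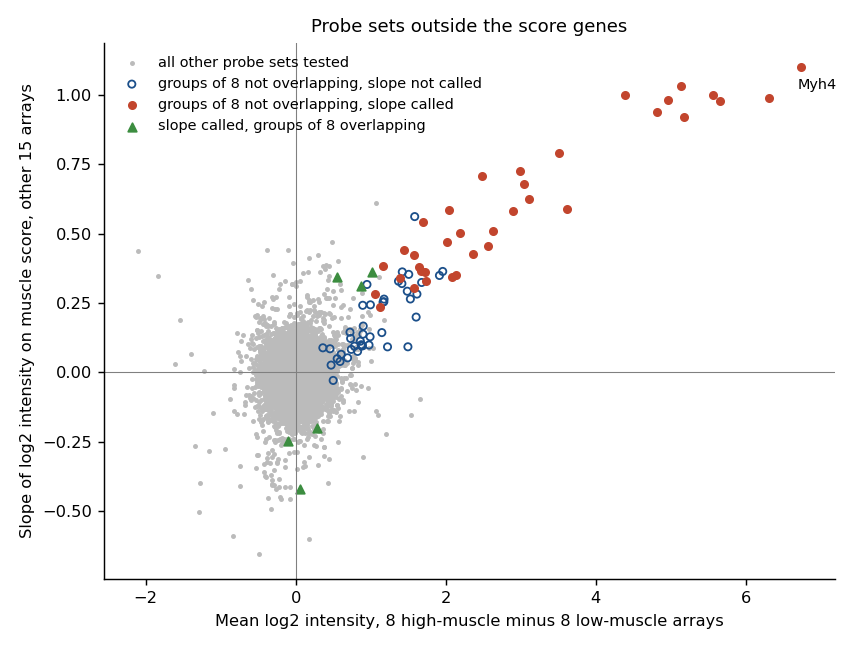
Slope of log2 intensity on the muscle score in the 15 arrays in neither group against the difference in mean log2 intensity between the 8 high-muscle and 8 low-muscle arrays, 1 point per probe set outside the score genes. The 36 red points did not overlap between the extremes and were called by slope, up to Myh4 at 6.74 and 1.10, while the 42 open circles did not overlap between the extremes but were not called by slope, and the 6 triangles were called by slope alone.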

How the data were processed

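Mammary gland RNA of 32 rats was hybridised to Affymetrix Rat 230 2.0 arrays, 1 rat to an array. The deposited values are linear intensity values from the authors' GC-RMA step in GeneSpring, whose version the sources do not give, which models background from each probe's sequence and brings the arrays to a common distribution. They were taken to log2 here. The 57 control probe sets were left out, which left 31042, of which 21068 had a value of 10 or more on all 31 arrays used. Of the 31042, 20826 had 1 gene symbol in the platform annotation, 436 several and 9780 none, and 20758 were matched by Entrez identifier to the GRCr8 table of RefSeq.

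The score was the mean over 5 genes of log2 intensity minus the gene's mean over 31 arrays, with the probe set of highest mean log2 per gene, and the same choice of probe set was used in the gene lists. High-muscle and low-muscle arrays were compared by differences of mean log2, with SE over arrays, and by whether the groups overlapped. No test was made on this contrast. The slope on score in the other 15 arrays was fitted with limma (lmFit, eBayes), Benjamini-Hochberg adjusted over all probe sets. Score was set against cycle day and clock hour by permutation. No slide or scan batch was known, and the number of arrays limits the precision. Genes named are the 5 of the score, the 15 of largest difference in each direction without overlap among probe sets that passed the filter, members of the muscle lists and the extremes of other lists. Members and lists were chosen with earlier results of these data known. The scripts were tested on simulated data. Alternatives covered group size, filter, score, normalization, covariates, array weights and leaving out each array. Python 3.11.15, numpy 2.4.6, pandas 2.3.3, scipy 1.17.1, matplotlib 3.10.9, R 4.3.3 and limma 3.58.1 were used.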

Additional observations from a re-analysis of the deposited data

Results flagged for a closer look

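In 6 of 78 groups of 8 arrays, 1 array stood apart from the others, where the gap to its neighbour as a share of the group's range passed Dixon's critical value. Chance flags about 1 in 20 groups, and the flags are given as values without weighing. The skin epidermis list (mean centred log2) was at 1.22 in the 7 h array against -0.21 to -0.09 in the other high-muscle arrays, a gap of 0.921 of the range. The lymphocyte list was at 1.82 in the 57 h array against -0.66 to -0.19 in the other high-muscle arrays, a gap of 0.811. Among the low-muscle arrays, the 62.5 h array had the mitosis list at 3.16 against -1.21 to 0.49 (gap 0.611) and log2 intensity of Mlf1 at 6.99 against 4.13 to 5.36 (gap 0.571). The 17.6 h array had the fibroblast and collagen list at -0.81 against -0.12 to 0.19 (gap 0.689), and the 31.6 h array had the luminal epithelial list at -0.40 against 0.03 to 0.35 (gap 0.576).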

How the results depend on the processing

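The count of probe sets higher without overlap was 83, and 604 with 5 against 5 arrays, where non-overlap is a weaker demand, 173 without the filter and 171 with a value of 10 or more on at least 8 arrays. Lower without overlap were 3, and 352 with 5 against 5 and 0 with 10 against 10 arrays. At least 2-fold higher were 69, and 107 with 5 against 5, 170 without the filter and 169 with the looser filter, and at least 2-fold lower 11, against 33, 18 and 18, and 7 with day and hour in the fit. Rising with score were 39, and 116 without the filter; falling with score were 3, and 1 with day and hour in the fit. Leaving out 1 array gave 83 to 108 and 3 to 7 without overlap, 66 to 79 and 7 to 15 by fold, and 31 to 41 and 1 to 4 by slope. Lower without overlap became 5 without the array of 86.3, 57 or 37.1 h, 6 without 31.6 h and 7 without 41.6 h, 2-fold lower became 7 without 7 h, and falling with score became 1 without that of 7.5, 14.6, 16, 35.5, 43, 58, 80.9, 85.3 or 88.1 h. The score missed the threshold against day and hour in every alternative, with p from 0.810 to 0.996 and from 0.270 to 0.649 when 1 array was left out. Of 6578 values of the named genes and list members under 23 alternatives, 9 moved beyond the spread within groups and none of the called differences reversed. Of 552 list medians 2 moved, that of the slow list to 0.24 with 5 against 5 arrays and that of the clock list to 0.09 with day and hour. Shifts smaller than the spread counted as unmoved, and most alternatives only left out 1 array. These counts therefore do not show that values held. The hormone-sensing median, counted as unmoved, went from 0.28 to -0.14 with day and hour. No paired analysis was possible because the labels give no replicate numbers and each time point has 1 rat. Intensities near the lowest on the arrays limit what can be said of the removed members.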

Other observations

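The 40 h array, which the study discarded and which entered no comparison, had a muscle score of 3.26 on the scale of the other 31 arrays, above the highest of them (2.88 at 13.2 h). Its intensities were 20217 for Acta1, 12814 for Myh4, 14243 for Myl1, 8447 for Ckm and 4634 for Eno3. It held slow-fibre RNA, with Myh7 at 203 and Tnnc1 at 289, while Sln was at 6.33. With this array among those scored, 91 probe sets were higher and 4 lower without overlap between the 8 highest and the 8 lowest arrays.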
